A study of Mus musculus with 12 samples.

Results

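The genes described here make serine, glycine, one-carbon units, asparagine and proline, or carry large neutral amino acids into the cell. They are Phgdh, Psat1, Psph, Shmt2, Mthfd2, Asns, Aldh18a1, Pycr1, Slc7a5 and Slc3a2. Members were chosen by gene symbol, which picked out 10 of the 56941 genes in the deposited count table, and each symbol has 1 row there. RNA was sequenced from the mouse myoblast line C2C12, whose cells can fuse to form myotubes, in 6 wells of a line carrying the ChR2::tdTomato transgene (a light-gated cation channel joined to a red fluorescent protein) and 6 wells of the Wild-Type line. Both lines were grown on a fibrin gel, for 2 days in growth medium with fetal bovine serum and aminocaproic acid and then for 6 days in a medium that induces differentiation and held horse serum, aminocaproic acid and IGF-1. The sources used here do not give the promoter of the transgene, whether the line is a single clone or any light stimulation. Nothing in the labels says that the wells of a line were separate cultures, and the p-values therefore reflect well-to-well spread alone, which may be technical. The labels give no second line of either genotype, so effects of the transgene and of the line cannot be told apart.

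Serine is built from the glycolytic intermediate 3-phosphoglycerate by PHGDH, PSAT1 and PSPH in turn. In mitochondria, SHMT2 splits serine into glycine and a one-carbon unit on folate, and MTHFD2 oxidises that unit on its way to formate, which the cytosol uses for purine and thymidylate synthesis. ASNS makes asparagine from aspartate, ALDH18A1 and PYCR1 make proline from glutamate, and SLC7A5 with its heavy chain SLC3A2 exchanges glutamine for leucine and other large neutral amino acids. Many of these genes are known targets of ATF4, the transcription factor of the integrated stress and amino acid responses.

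Library totals lay between 7388760 and 12229500 estimated counts for ChR2 wells, and between 10268100 and 13628600 for wild-type wells 1, 3, 4 and 6. Wild-type wells 2 and 5 held 1061070 and 2809670. They also stood apart in composition, with 24.8% and 8.37% of counts from 7SL RNA, which has no poly(A) tail, against at most 0.0341% in the other 10 libraries. The protocol mentions ribosomal RNA depletion for low-input samples without naming them. The 10 genes and the list counts are therefore given with all 12 libraries and with the 10 that remain without these wells. All 13 skeletal muscle markers passed the filter on low counts, 3 of them lower in ChR2 wells over 12 libraries and 4 over 10, with summed levels of 11430 to 13390 CPM in ChR2 wells and 9824 to 26390 CPM in wild-type wells. Adipocyte, endothelial and neural markers summed to at most 0.687 CPM in any well, and of the immune markers only Cd68 passed the filter on low counts.

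ChR2 wells held more message of most of these genes. Proline synthesis genes differed most, Pycr1 by 2.55-fold and Aldh18a1 by 2.35-fold, while Psph, Shmt2, Slc7a5, Mthfd2, Psat1 and Asns were 1.52-fold to 1.73-fold higher. All 10 genes passed the filter on low counts. Over 12 libraries edgeR's quasi-likelihood test called 8 of the 10 higher in ChR2 wells and 0 lower at a p under 0.05 after Benjamini-Hochberg adjustment. Of all 13168 genes tested 14.0% were called higher, 14.1% lower and 28.1% in either direction. At an unadjusted p under 0.05, 9 were higher and 0 lower, beside 19.2% of all genes higher, and the Wald test of DESeq2 called 9, all higher, beside 13.7% of the 16287 genes it tested. Without wild-type wells 2 and 5 all 10 were called higher, against 18.9% of 13484 genes called higher, 16.3% lower and 35.2% in either direction. The median log2 fold change of the 10 genes was 0.71 over 12 and 0.64 over 10 libraries, beside -0.02 and -0.0014 over all genes tested. The members were chosen with earlier results of these data known. The contrasts with all genes, here and below, are therefore not independent evidence.

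For 7 genes the lowest ChR2 well lay above the highest wild-type well, where 8.57% of all genes tested separated in that direction. Without wild-type wells 2 and 5 it was 8 genes, beside 13.8% of all genes. Levels are given as CPM, counts scaled to a common library total after TMM normalization, and means carry their SD over the 6 wells of a line. A positive log2 fold change is a higher level in ChR2 wells, and adjusted p-values are from edgeR. RNA of a whole well cannot tell more cells of a kind from more message per cell.

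**Figure D1:**
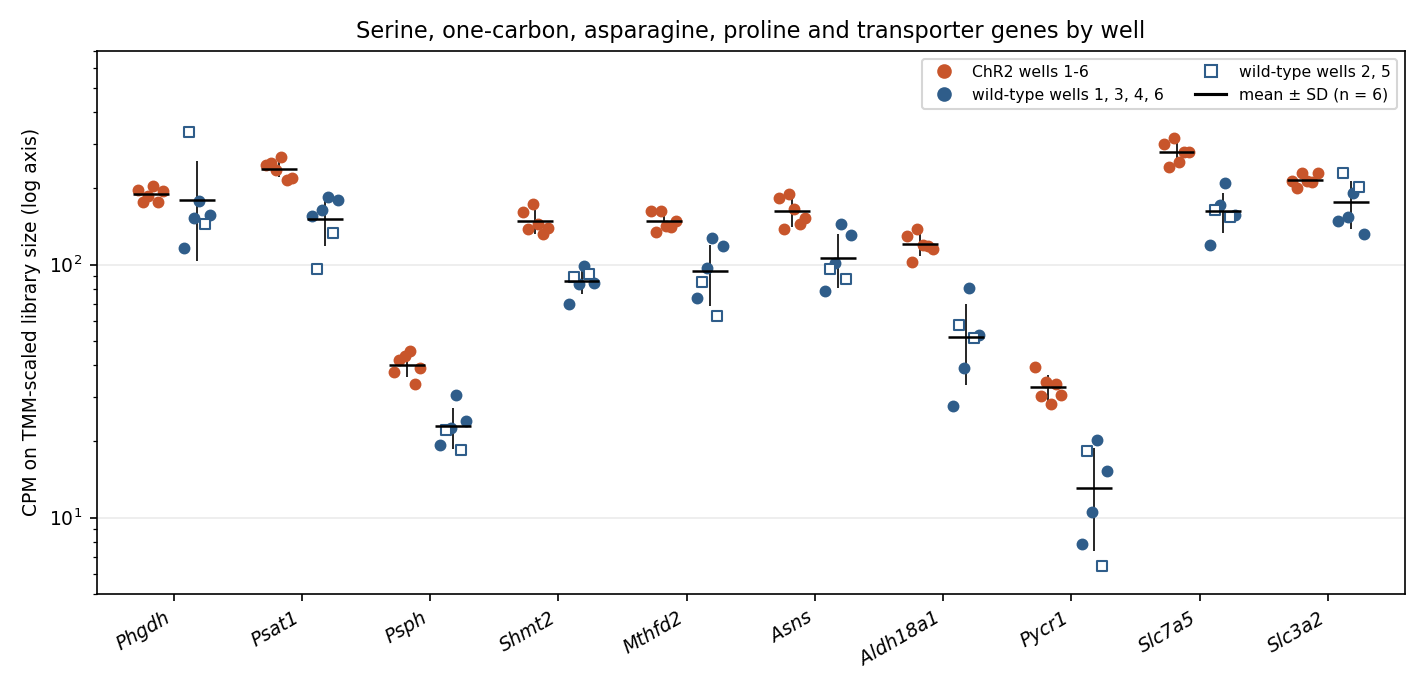
Level of each of the 10 genes in every well (vertical log axis, CPM); filled circles are ChR2 wells (orange) and wild-type wells 1, 3, 4 and 6 (blue), open squares are wild-type wells 2 and 5, and bars give mean ± SD over 6 wells. The ChR2 wells lie above every wild-type well for 7 genes, and 1 of the open squares stands apart for Phgdh, wild-type well 2 at 332.9 CPM.

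Within the serine synthesis pathway, the later steps differed between the lines over all wells and the first did not pass the test. Phgdh (ENSMUSG00000053398), the 3-phosphoglycerate dehydrogenase that opens the pathway, had a lowest, median and highest level of 176, 191 and 205 CPM in ChR2 wells and 116, 155 and 333 CPM in wild-type wells. The lines overlapped: wild-type well 2 lay above all ChR2 wells and well 4, at 178 CPM, above the lowest of them. The log2 fold change was 0.095 (SE 0.20, adjusted p = 0.76 by edgeR), and the means were 190 ± 11.4 and 180 ± 77.4 CPM. The outcome turned on well 2, since leaving it out gave 0.36 (adjusted p = 0.0262), and leaving out wells 2 and 5 gave 0.34 (SE 0.11, adjusted p = 0.0247). The estimated counts of Phgdh were fractional in all 12 libraries, as arises when reads are shared with other transcripts, so its level is less certain.

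Psat1 (ENSMUSG00000024640), the phosphoserine aminotransferase, stood at 217, 242 and 265 CPM (lowest, median, highest) in ChR2 and 95.7, 160, and 185 CPM in wild-type wells. All ChR2 wells lay above all wild-type wells, of which well 2 was the lowest. Its log2 fold change was 0.64 (SE 0.14, adjusted p = 0.00441), and 0.50 (SE 0.091, adjusted p = 0.000979) over 10 libraries. Psph (ENSMUSG00000029446), the phosphatase of the last step, ran from 33.6 over a median of 40.5 to 45.6 CPM in ChR2 wells and from 18.6 over 22.4 to 30.6 CPM in wild-type wells, again without overlap. It was higher by 0.79 (SE 0.13, adjusted p = 0.000841) and by 0.75 (SE 0.13, adjusted p = 0.000716) over 10 libraries. In GENCODE M21 parts of Psph, Psat1 and Shmt2 overlap Cct6a, Gm3329 and Ndufa4l2 on the other strand, and the sources used here do not say whether counting used strand. Parts of Mthfd2 and Aldh18a1 overlap Gm43890 and Gm15801 on the same strand. The estimated counts of Psph, Psat1, Shmt2, Mthfd2 and Aldh18a1 were whole numbers in all 12 libraries, unlike those of Phgdh. Whether reads were shared with the overlapping genes was not tested.

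The mitochondrial branch of folate metabolism was higher in ChR2 wells at both genes. Shmt2 (ENSMUSG00000025403), the mitochondrial serine hydroxymethyltransferase, stood at 132, 143 and 174 CPM in ChR2 wells and 69.6, 86.7 and 99.1 CPM in wild-type wells. The lines did not overlap, and wild-type wells 2 and 5, at 89.1 and 92.1 CPM, lay within the range of their own line. The means of 148 ± 16.1 and 86.3 ± 9.96 CPM differed by 0.79 on the log2 scale (SE 0.11, adjusted p = 0.000311), and by 0.83 over 10 libraries (SE 0.11, adjusted p = 0.000124). Over 12 libraries Shmt2 ranked 188 of 13168 genes by p, first among the 10. Mthfd2 (ENSMUSG00000005667), the mitochondrial methylenetetrahydrofolate dehydrogenase and cyclohydrolase, stood at 134, 146 and 163 CPM in ChR2 wells and 62.8, 91.2 and 128 CPM in wild-type wells. There the gap was narrow, with wild-type wells 4 and 6 at 127.8 and 117.9 CPM just under the lowest ChR2 well. Its log2 fold change was 0.65 (SE 0.16, adjusted p = 0.00773), and 0.53 (SE 0.13, adjusted p = 0.0076) over 10 libraries.

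Among other mitochondrial genes of the folate list, Mthfd1l and Aldh1l2 were called higher and Mthfd2l was not. Mthfd1l, which releases formate in mitochondria, averaged 125 ± 11.3 CPM in ChR2 against 45.8 ± 14.3 CPM in wild-type wells, a log2 fold change of 1.46 (SE 0.18, adjusted p = 0.000117), and 1.62 over 10 libraries (adjusted p = 0.000108). Aldh1l2, which oxidises mitochondrial formyltetrahydrofolate to carbon dioxide, ran from 250 to 291 CPM in ChR2 wells and from 37.9 to 185 CPM in wild-type wells, a difference of 1.86 on the log2 scale (SE 0.33, adjusted p = 0.00122), and 1.67 over 10 libraries (adjusted p = 0.0121). Wild-type well 4 held the 185 CPM, and the other 5 wild-type wells reached at most 71.8 CPM. Mthfd2l, the paralog of Mthfd2, averaged 12.3 ± 1.23 against 9.87 ± 3.92 CPM (0.19, SE 0.19, adjusted p = 0.494). Mthfd1, the trifunctional cytosolic enzyme, averaged 37.1 ± 3.21 CPM in ChR2 against 37 ± 7.18 CPM in wild-type wells, a log2 fold change of -0.0039 (SE 0.13, adjusted p = 0.987) whose sign turned under other scalings. Cytosolic Shmt1 was at 6.64 ± 1.18 and 5 ± 0.51 CPM without being called (0.42, SE 0.17, adjusted p = 0.0819). Of the 14 tested genes on the folate list besides Mthfd2, 2 rose (Mthfd1l and Aldh1l2) and 1 fell, with a median of 0.21, and over 10 libraries 2 rose and 1 fell.

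**Figure D2:**
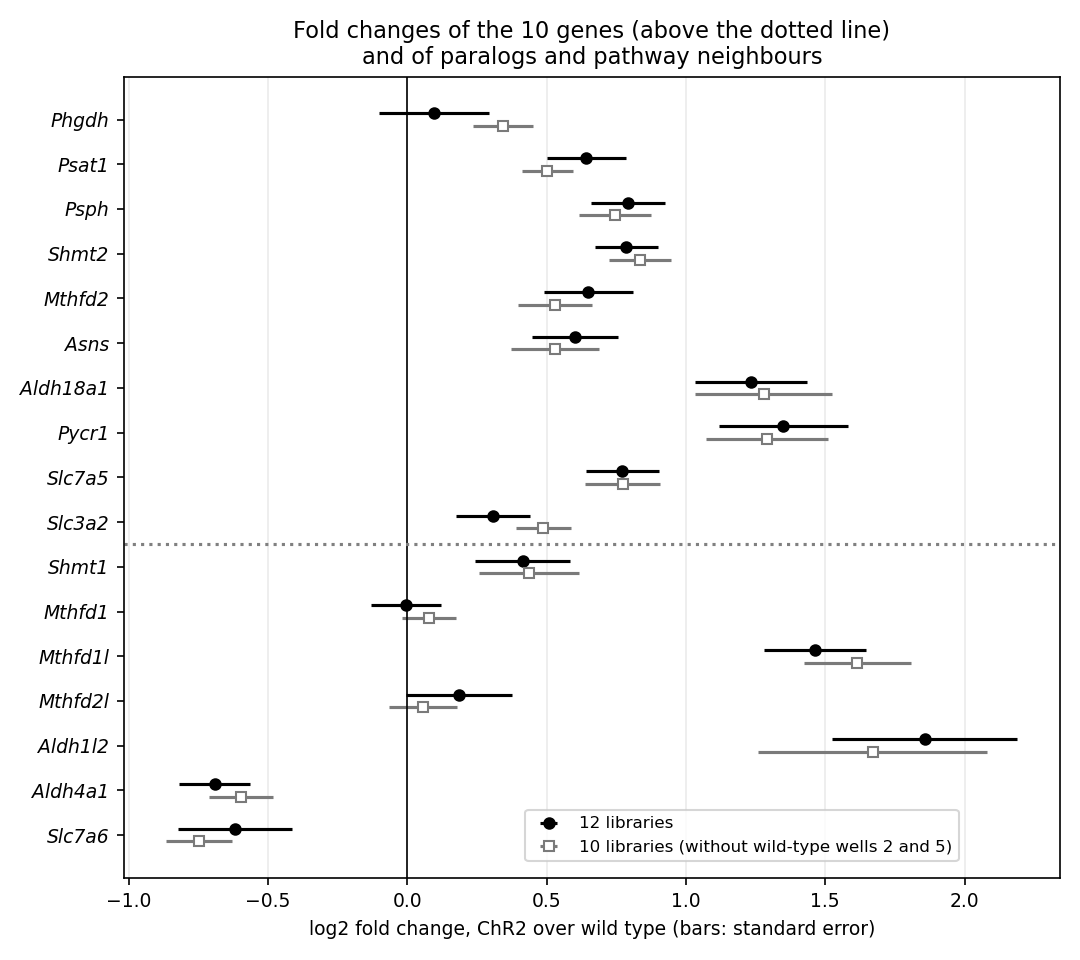
Log2 fold change of ChR2 over wild type (horizontal axis, bars show the standard error) for the 10 genes above the dotted line and for paralogs and neighbours below it, with 12 libraries (filled circles) and with 10 (open squares). Phgdh and Slc3a2 move to the right without wild-type wells 2 and 5, Mthfd1l and Aldh1l2 lie at 1.46 and 1.86, and Mthfd1 lies near 0, with a sign that turned under other scalings.

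Proline synthesis genes had the largest fold changes of the 10. Aldh18a1 (ENSMUSG00000025007), which encodes the bifunctional enzyme that turns glutamate into the proline precursor, stood at 102, 119 and 138 CPM in ChR2 wells and 27.7, 51.9 and 81.2 CPM in wild-type wells. All ChR2 wells exceeded all wild-type wells, among which well 1 was lowest and well 4 highest. Means of 120 ± 12.3 and 51.6 ± 18.1 CPM gave a log2 fold change of 1.23 (SE 0.20, adjusted p = 0.000695), and 1.28 (SE 0.25, adjusted p = 0.00266) over 10 libraries. Pycr1 (ENSMUSG00000025140), the mitochondrial reductase of the last step, stood at 28.2, 32.2 and 39.4 CPM in ChR2 wells and 6.42, 12.9 and 20.4 CPM in wild-type wells, without overlap. Its log2 fold change was 1.35 (SE 0.23, adjusted p = 0.000931), and 1.29 (SE 0.22, adjusted p = 0.000915) over 10 libraries. The shallow wild-type wells 2 and 5 held only 14 and 18 estimated counts of Pycr1, so counting error is large in them.

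Aldh4a1, a mitochondrial enzyme of proline breakdown, fell by 0.69 (SE 0.13, adjusted p = 0.0015), and by 0.60 over 10 libraries (adjusted p = 0.00155), from 17.5 ± 2.63 in wild-type to 10.7 ± 0.62 CPM in ChR2 wells. Bcat1, the cytosolic aminotransferase of branched-chain amino acids, averaged 47.3 ± 6.13 against 19.4 ± 11.1 CPM (1.25, SE 0.24, adjusted p = 0.0021, and 1.43 over 10 libraries, adjusted p = 2.87e-05). Among 18 tested genes of the amino acid synthesis list other than Asns, Aldh18a1 and Pycr1, 5 rose and 1 fell, with a median of 0.13, and over 10 libraries 6 rose and 1 fell. Beside Bcat1 the called rises were Oat, Gls2, Gpt2 and Ass1, named after their values were seen.

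Asns (ENSMUSG00000029752), the asparagine synthetase, stood at 138, 159 and 190 CPM in ChR2 wells and 78.4, 98.5 and 145 CPM in wild-type wells. Here 1 wild-type well, number 4 at 144.6 CPM, lay above the lowest ChR2 well, number 2 at 137.8 CPM. The log2 fold change was 0.60 (SE 0.15, adjusted p = 0.00991), and 0.53 (SE 0.16, adjusted p = 0.019) over 10 libraries.

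Asns and Pycr1 are the genes of the group with the core of the composite site bound by ATF4 with C/EBP proteins, searched as TGATGNAA on both strands, in the 250 bases before their start. Of 9 genes with a promoter window in the RefSeq table (build GRCm38.p6), these 2 held the core, as did 3.45% of all 32851 windows, and Slc7a5 had no window. The windows are shown with the core in capitals, 23 bases before the start in Asns (chr6:7693210-7693459, minus strand) and 103 bases before it in Pycr1 (chr11:120643749-120643998, minus strand), each written 5′ to 3′ on the strand of the gene.
Asns: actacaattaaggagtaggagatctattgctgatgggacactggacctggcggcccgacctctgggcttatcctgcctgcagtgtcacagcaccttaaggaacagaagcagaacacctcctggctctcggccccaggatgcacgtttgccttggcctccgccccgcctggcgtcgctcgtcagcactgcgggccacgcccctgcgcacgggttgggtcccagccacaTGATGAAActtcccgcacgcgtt
Pycr1: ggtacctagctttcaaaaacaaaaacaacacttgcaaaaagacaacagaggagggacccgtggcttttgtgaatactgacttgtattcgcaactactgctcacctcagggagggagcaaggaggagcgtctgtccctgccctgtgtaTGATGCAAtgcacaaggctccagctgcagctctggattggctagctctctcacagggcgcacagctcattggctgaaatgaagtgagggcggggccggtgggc
Both cores lie on the strand of the gene and differ from each other in the letter at the open position. Asns, with the core close to its start, had a log2 fold change of 0.60 and Pycr1 one of 1.35. A match is a string of letters and not a measured site, and binding was not measured here.

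Of the transporter chains, the light chain was called over 12 libraries and the heavy chain was not. Slc7a5 (ENSMUSG00000040010), the catalytic light chain, stood at 242, 278 and 317 CPM in ChR2 wells and 120, 161 and 210 CPM in wild-type wells, with no overlap. Its log2 fold change of 0.77 (SE 0.13, adjusted p = 0.000892) was 0.77 (SE 0.14, adjusted p = 0.000793) without wild-type wells 2 and 5. Gm20388, annotated on the other strand, spans the whole gene. The estimated counts of Slc7a5 were whole numbers in all 12 libraries, unlike those of Phgdh. Whether reads of the pair were shared was not tested. Slc3a2 (ENSMUSG00000010095), the heavy chain that carries SLC7A5 and several other light chains to the membrane, stood at 200, 214 and 230 CPM in ChR2 wells and 132, 172 and 229 CPM in wild-type wells. Wild-type wells 2 and 5, at 229.4 and 202.7 CPM, lay inside the ChR2 range and the other 4 wild-type wells below it. It was not called over 12 libraries (0.31, SE 0.13, adjusted p = 0.0972), and it was without well 2 alone (0.41, adjusted p = 0.0175) and without wells 2 and 5 (0.49, SE 0.10, adjusted p = 0.00221). DESeq2 and limma voom also called it over 12 libraries (0.34 and 0.42 on the log2 scale).

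Other light chains that pair with SLC3A2 were not called higher. Slc7a6 fell by 0.62 (SE 0.20, adjusted p = 0.0354), from 37.6 ± 15.2 to 25.8 ± 1.56 CPM, and by 0.75 over 10 libraries (adjusted p = 0.000378), where the lines did not overlap. That call over 12 libraries ended when any 1 of the ChR2 wells or wild-type wells 1 or 3 was left out (adjusted p up to 0.094). The cystine transporter chain Slc7a11 was at 6.93 ± 1.66 and 9.72 ± 7.95 CPM without being called (-0.46, SE 0.40, adjusted p = 0.417), and Slc7a8 reached at most 0.581 CPM in any well. Of 23 tested amino acid transporters besides the pair, 4 rose and 3 fell, with a median of 0.05, and over 10 libraries 8 of 24 rose and 2 fell. The glutamate transporter Slc1a3 had the largest called rise (2.38, SE 0.44, adjusted p = 0.00143) at 2.81 ± 0.94 and 0.77 ± 0.95 CPM, although wild-type well 2, with 2 counts, overlapped the ChR2 wells. The taurine transporter Slc6a6 had the largest called fall among genes of at least 1 CPM (-0.65, SE 0.13, adjusted p = 0.00297) at 338 ± 34.8 and 530 ± 90.3 CPM. Slc1a4, a carrier of serine and other small neutral amino acids, rose by 1.25 (SE 0.15, adjusted p = 9.24e-05) and was named after its value was seen.

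Ratios between 2 genes within a well do not depend on how libraries are scaled, and 6 such ratios of TPM (transcripts scaled to a common total, which takes account of length) were compared by a two-sided exact permutation test. Values are adjusted over the 6, of which 5 are given. The smallest p that 6 wells against 6 allow is 0.0022. Mitochondrial Mthfd2 over cytosolic Mthfd1 had a mean log2 ratio of 2.63 ± 0.075 in ChR2 and 2.01 ± 0.50 in wild-type wells, and each ChR2 well exceeded each wild-type well (difference 0.62, exact permutation p = 0.0022, adjusted 0.0065). The difference over 10 libraries was 0.44 (exact permutation p = 0.0095, the smallest that 6 against 4 wells allow, adjusted 0.0286). The ChR2 wells were close together in the Mthfd2 ratio, between 2.55 and 2.76, while the wild-type wells ran from 1.101 to 2.52.

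The light chain Slc7a5 over its heavy chain Slc3a2 had a log2 ratio of -0.71 ± 0.094 in ChR2 and -1.21 ± 0.39 in wild-type wells (difference 0.50, exact permutation p = 0.0065, adjusted 0.013). Over 10 libraries that difference was 0.30 and missed the threshold (adjusted exact permutation p = 0.0571). Shmt2 over Shmt1 differed by 0.77 (4.87 ± 0.44 and 4.10 ± 0.26, exact permutation p = 0.013, adjusted 0.0195), or by 0.64 over 10 libraries (adjusted exact permutation p = 0.0714). In that ratio ChR2 well 4, at 4.001, lay below 5 of the 6 wild-type wells, and the other 5 ChR2 wells, from 4.90 to 5.16, above all of them. That low value rests in part on the TPM of a gene with few counts. Shmt1 held 57 estimated counts in both ChR2 wells 3 and 4, at 7.17 and 7.83 CPM but 3.78 and 5.45 TPM. Phgdh over Psat1 was 0.11 ± 0.096 in ChR2 and 0.49 ± 0.49 in wild-type wells (difference -0.37, exact permutation p = 0.0455, adjusted 0.0545), and wild-type well 2 held the highest value at 1.41. Over 10 libraries that difference was -0.12 (exact permutation p = 0.2, adjusted 0.24). Mthfd2 over its paralog Mthfd2l did not separate the lines (difference -0.12, exact permutation p = 0.892, adjusted 0.892), and its highest value, 5.49 in wild-type well 2, rests on 2 counts of Mthfd2l.

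**Figure D3:**
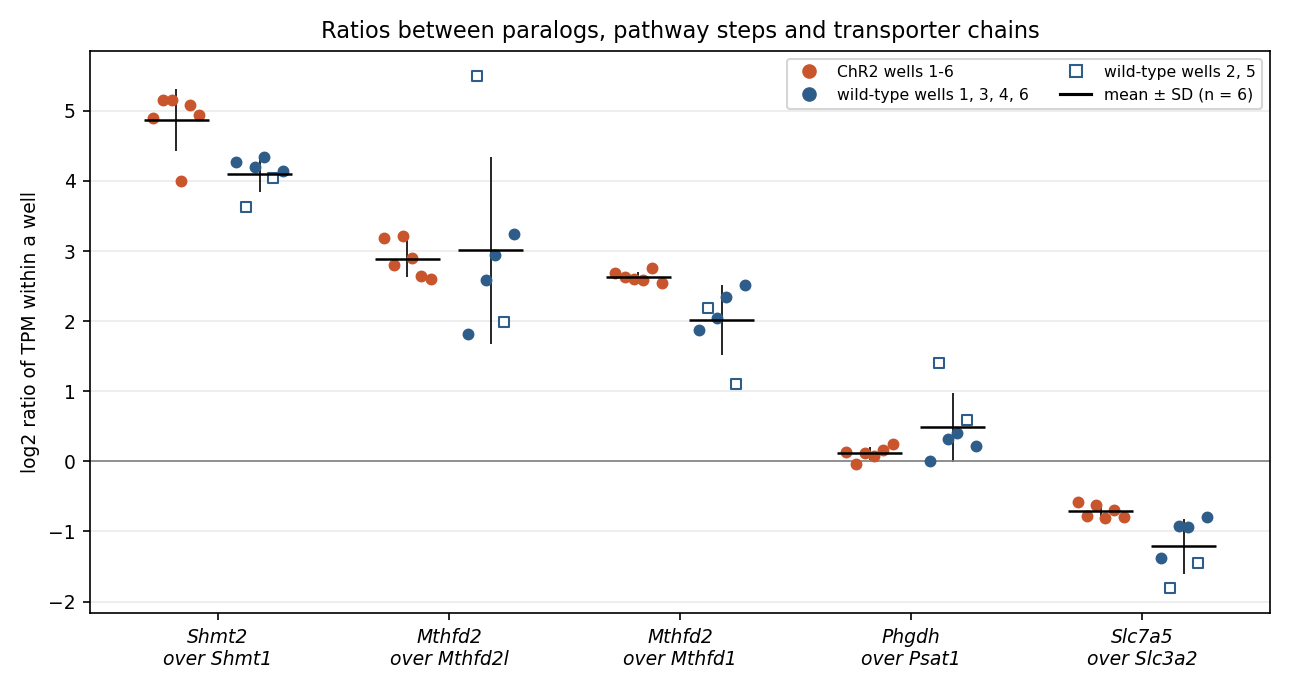
Log2 ratio of TPM within each well (vertical axis) for 5 gene pairs; filled circles are ChR2 wells (orange) and wild-type wells 1, 3, 4 and 6 (blue), open squares wild-type wells 2 and 5, and bars mean ± SD over 6 wells. Mthfd2 over Mthfd1 separates the lines, and the ratio of Mthfd2 to Mthfd2l does not.

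Per length, Slc3a2 was the most abundant of the 10 in ChR2 wells, at 175 ± 20 TPM, followed by Phgdh at 141 ± 13.5, Psat1 at 130 ± 14.1 and Asns at 117 ± 24.3 TPM. Slc7a5, Shmt2 and Mthfd2 lay close together at 108 ± 18.7, 105 ± 19 and 103 ± 16.8 TPM, within their spread. Aldh18a1 at 51.2 ± 9.73, Psph at 36.9 ± 4.85 and Pycr1 at 25.3 ± 4.70 TPM came last. In wild-type wells 1, 3, 4 and 6 the same 7 genes led, from 131.5 ± 25.3 TPM for Slc3a2 to 62.1 ± 6.09 TPM for Shmt2, and Psph at 26.4 ± 6.67 and Aldh18a1 at 23.4 ± 10.3 TPM could not be ordered beyond their spread (n = 4 wells).

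Levels lay closer together among ChR2 wells than among wild-type wells. That was not particular to the 10 genes. Over the genes with enough counts, the chi-square per degree of freedom between pairs of wells ran from 5.09 to 36.9 in the ChR2 line. It ran from 22.6 to 52.7 among wild-type wells 1, 3, 4 and 6, so the ranges overlapped. ChR2 pairs with well 4 ran from 29.2 to 36.9, and the other ChR2 pairs reached at most 14.1. The measure was not corrected for depth. The coefficient of variation of CPM over 6 wells was between 5.29% and 12.9% for the 10 genes in ChR2 and between 11.5% and 43.6% in wild-type wells, and in wild-type wells 1, 3, 4 and 6 it ran from 8.15% for Psat1 to 46% for Aldh18a1. Wild-type well 4 was the highest of its line for 8 of the 10 genes, and well 1 the lowest for 5. How often these wells take those places over all genes was not counted. Averaged over the 10 genes, log2 CPM relative to the mean of all wells was 0.02 in well 4, -0.29 in well 6, -0.44 in well 3 and -0.76 in well 1, and between 0.27 and 0.51 in the ChR2 wells. The shallow wild-type wells 2 and 5 were at -0.24 and -0.58. Well 4 therefore lay nearest to the ChR2 wells without reaching them.

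**Figure D4:**
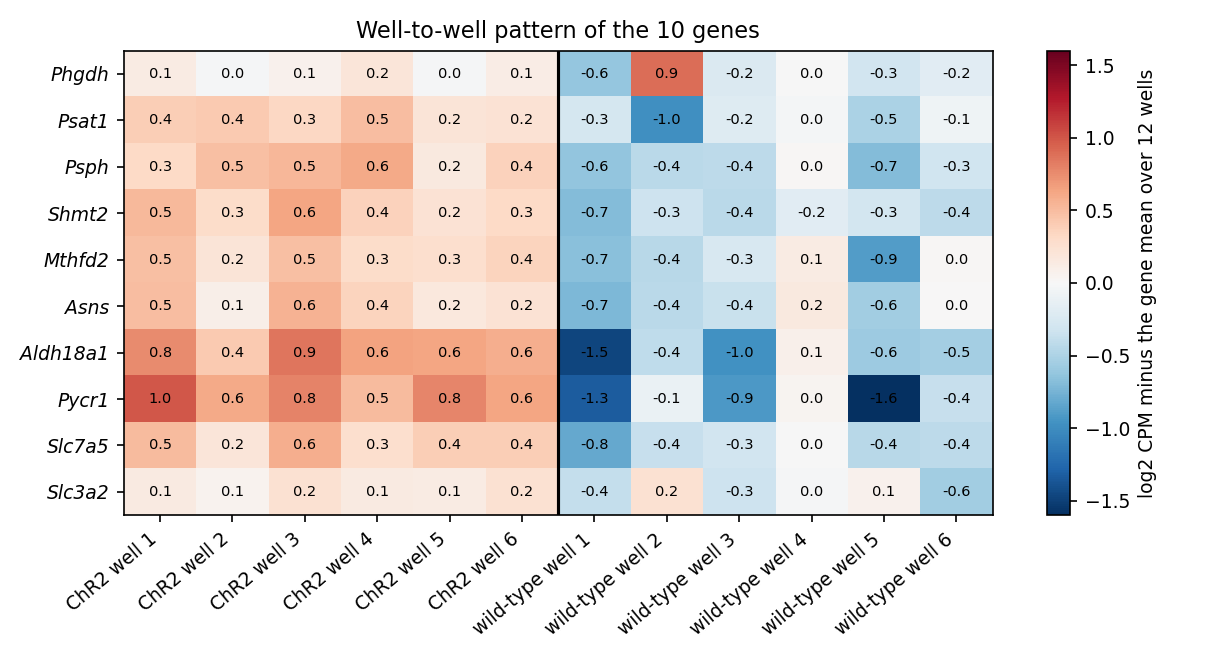
Log2 CPM of each of the 10 genes (rows) in each of the 12 wells (columns) minus the mean of the gene over all wells, with red for higher and blue for lower levels. ChR2 wells are near or above the mean for every gene, wild-type well 1 is below it throughout, well 4 sits near it, and well 2 departs upward for Phgdh and downward for Psat1.

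The 5 other genes whose pattern over the 12 libraries lay closest to the average of the 10, by the Euclidean distance between centred log2 CPM profiles, were Pcgf5 (distance 0.32), Lhfp (0.35), Sparc (0.36), Akap7 (0.37) and Pgk1 (0.41). The members themselves lay between 0.34 for Slc7a5 and 1.53 for Pycr1. Likeness to the 10 was the rule of choice, so a similar fold change was built in and is not a separate result. Pcgf5, Lhfp and Akap7 had log2 fold changes of 0.73, 0.74 and 0.75. Sparc, a collagen-binding matrix protein, averaged 2875 ± 180 CPM in ChR2 against 1630 ± 354 CPM in wild-type wells (0.82 on the log2 scale). Pgk1, the glycolytic enzyme just upstream of 3-phosphoglycerate, averaged 2591 ± 170 against 1560 ± 270 CPM (0.73).

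Of 21 genes of the ATF4 branch 9 rose and 2 fell, with a median of 0.49, and over 10 libraries 12 rose and 1 fell. Atf4 itself ran from 339 to 377 CPM in ChR2 wells and from 224 to 337 CPM in wild-type wells, without overlap. It was called (log2 fold change 0.37, SE 0.12, adjusted p = 0.0352), but the call ended when any 1 of the 6 ChR2 wells or wild-type wells 1, 3 or 5 was left out (adjusted p up to 0.0845). It was called over 10 libraries (0.40, adjusted p = 0.0186). Trib3, a pseudokinase and feedback gene of the branch, averaged 71.4 ± 6.69 against 26.6 ± 16.1 CPM (1.53, SE 0.31, adjusted p = 0.00258). Ddit3, which encodes the stress factor CHOP, averaged 55.7 ± 8.99 against 18.3 ± 10.7 CPM (1.503, SE 0.26, adjusted p = 0.000983). Over 10 libraries these were 1.67 and 1.34 (adjusted p = 0.00763 and 0.00414). In the wild-type line both were highest in well 4, at 48.5 and 38.2 CPM, the well that also led for 8 of the 10 genes. Cebpb, which encodes a partner of ATF4, fell by 0.88 (SE 0.29, adjusted p = 0.0372), a call lost over 10 libraries (-0.34, adjusted p = 0.116) and without any 1 of the ChR2 wells or wild-type wells 2 or 5 (adjusted p up to 0.083). The other called fall of the list, Eif2ak1, held in both fits and was named after its value was seen. It was lower by 0.50 over 12 libraries (SE 0.12, adjusted p = 0.00649) and by 0.50 over 10 (adjusted p = 0.00355).

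**Figure D5:**
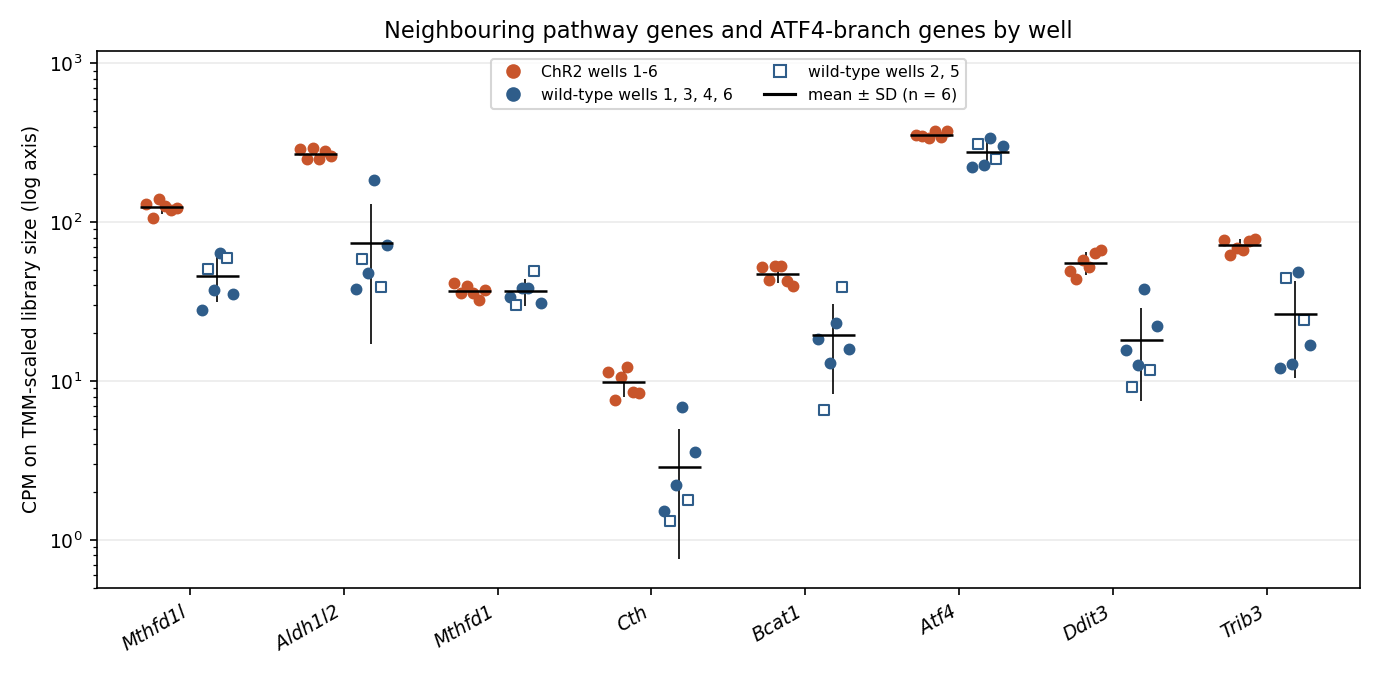
Level in every well (vertical log axis, CPM) of folate genes, Cth, Bcat1 and ATF4-branch genes; symbols are filled circles for ChR2 wells (orange) and wild-type wells 1, 3, 4 and 6 (blue), open squares for wild-type wells 2 and 5, and bars for mean ± SD over 6 wells. Mthfd1l, Aldh1l2, Cth, Bcat1, Atf4, Ddit3 and Trib3 separate the lines, whereas Mthfd1 overlaps. Wild-type well 4 is the highest of its line for Mthfd1l, Aldh1l2, Cth, Atf4, Ddit3 and Trib3, and well 5 for Mthfd1 and Bcat1.

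Lists of pathways that use or break down the products were described in the same way. Among 8 tested genes of serine and glycine breakdown edgeR called 0, with 2 higher and 0 lower at an unadjusted p under 0.05, 0 calls by DESeq2 and 2 higher by limma voom. Over 10 libraries 1 rose, Sdsl (1.08, adjusted p = 0.0249), named after its value was seen, and 1 fell. Dld, a subunit shared by the glycine cleavage system and other mitochondrial complexes and the most abundant of them, averaged 205 ± 18.6 against 205 ± 78.3 CPM (-0.012 on the log2 scale, SE 0.22, adjusted p = 0.978), and was the gene that fell over 10 libraries (-0.29, adjusted p = 0.0278). Of 9 genes of the methionine cycle and transsulfuration, 2 rose in both fits and 0 fell, with a median of -0.078 over 12 and 0.026 over 10 libraries. The rises were Cth and Ahcyl1 (0.59, SE 0.11, adjusted p = 0.00124), the latter named after its value was seen. Mtr, Mtrr, Mat2a, Mat2b and Ahcy were not called in either fit. Cth, the enzyme that releases cysteine from cystathionine, was at 9.81 ± 1.86 and 2.89 ± 2.12 CPM (1.58, SE 0.32, adjusted p = 0.00267, and 1.47 over 10 libraries, adjusted p = 0.00537). Of 18 genes of nucleotide synthesis, 2 rose and 2 fell, with a median of -0.10, and over 10 libraries 3 rose and 1 fell. Prps2 rose by 0.61 (SE 0.15, adjusted p = 0.00778), whereas Adsl, of purine synthesis, fell by 0.45 (adjusted p = 0.0456) and was not called over 10 libraries (-0.19, adjusted p = 0.124) or without any 1 of 9 wells (ChR2 wells 1, 2, 3, 5 and 6 and wild-type wells 1, 2, 3 and 5, with 0.092 as the highest adjusted p).

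Some other gene lists also differed between the lines. Of 16 cell cycle genes 13 rose in both fits, and their summed level ran from 1008 to 1390 CPM in ChR2 wells and from 290 to 823 CPM in wild-type wells, with well 6 the highest of that line. Of 8 tested fibroblast markers 4 rose in both fits, and the sum of all 10 markers ran from 4092 to 4864 CPM in ChR2 wells and from 1140 CPM for wild-type well 1 to 4114 and 4384 CPM in wells 4 and 2. Most of the sum in ChR2 wells came from Col3a1 and Col1a2, at 2442 ± 219 and 1062 ± 58.1 CPM, both called higher. Of these 10, Lum and Thy1 did not pass the filter on low counts, while Dcn, at 83.3 ± 9.52 and 51.5 ± 30.6 CPM, and Pdgfra, at 6.98 ± 1.53 and 8.92 ± 3.19 CPM, passed it without being called. Col1a1, at 508 ± 56.4 and 583 ± 297 CPM, and Postn, at 262.5 ± 14.3 and 202 ± 104 CPM, were not called either. Of 8 NRF2 targets 6 fell, and 4 over 10 libraries. Their summed level was 284 to 345 CPM across ChR2 wells, 295 CPM for wild-type well 6, 365 CPM for well 4 and 722 to 1578 CPM for the remaining wild-type wells. The part of any of these in the differences described was not tested.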

How the data were processed

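RNA of 12 wells was selected by poly(A) tail, or by ribosomal depletion for low input, and sequenced as pairs of 50 bases after 14 PCR cycles, per the labels' protocols. The authors deposited estimated counts per gene, which need not be whole, and TPM for the same genes. The submitters' processing notes name Salmon, STAR, bedtools 2.25.0 and BWA 0.7.12-r1039 with no role for each, and list as builds GRCm39, mm10 and hg19.

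Counts were rounded, filtered with filterByExpr (minimum count 10), scaled by TMM and tested with edgeR 4.0.16 (R 4.3.3) with genotype as the term, over all genes. The threshold was an adjusted p of 0.05. Alternatives used limma 3.58.1 and DESeq2 1.42.0, and ratios of TPM were tested with scipy 1.17.1. Figures were drawn with matplotlib 3.10.9. Reads were amplified and carry no molecular identifiers, so depth bears on counting error only. No 2 wells of a line agreed within sampling noise (lowest chi-square per degree of freedom 5.09). Of rows sharing a symbol, the one with the highest total was used (Ddit3, Gcat). Columns left unused numbered 0.

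The members and lists were chosen with earlier results of these data known. Named genes were the 10 members, 11 paralogs and ATF4-branch genes, per pathway list the largest called rise and fall of at least 1 CPM or else the most abundant gene, and the 5 nearest in pattern. Each list was described by counts and median. A few items are not reported here.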

Additional observations from a re-analysis of the deposited data

Results flagged for a closer look

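In 80 groups of 6 wells, 6 had a well whose gap to its nearest neighbour took more of the range than Dixon's critical value of 0.625 allows, where chance gives about 1 group in 20. Phgdh stood at 332.9 CPM in wild-type well 2, against 116 to 178 CPM in the other 5 wild-type wells. Aldh1l2 stood at 185.4 CPM in wild-type well 4, against 37.9 to 71.8 CPM. Slc1a3 stood at 2.62 CPM in wild-type well 2, against at most 0.807 CPM, and that level rests on 2 counts. Among ChR2 wells, Dld was at 169.5 CPM in well 3 (207 to 223 CPM elsewhere) and Cebpb at 30.4 CPM in well 2 (39.6 to 43.9 CPM elsewhere). The log2 ratio of Shmt2 to Shmt1 was 4.001 in ChR2 well 4 and between 4.90 and 5.16 in the other ChR2 wells. Shmt1 held only 57 estimated counts in well 4. Its 7.83 CPM there lay within the range of the other ChR2 wells, while its 5.45 TPM lay above it.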

How the results depend on the processing

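The 8 members called over 12 libraries kept their call and direction under other count scalings and filters, DESeq2, limma voom, the block and each well left out. With single wells left out 8 to 10 members were called higher and 0 lower, of 2822 to 4115 genes called. Limma on TPM over 12 libraries called fewer: 2 members of 521 genes with a pseudocount of 1, 1 of 274 with 0.1, and 1 of 521 without a filter. There the median of all genes shifted to 0.35, 0.43 and 0.08 and calls were 95.6%, 93.8% and 92.7% higher, against 49.7% in the main test and 59.4% with upper-quartile scaling. On TPM without wild-type wells 2 and 5, chosen after seeing the data, 8 members were called among 3240 of 13160 genes, and with DESeq2 size factors there 10 among 4846 of 13484.

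Replicate numbers did not pair the wells: same-numbered wells correlated between -0.144 and 0.095, and 1 of 6 correlated best with its own number. With the replicate number as a block 8 members and 2641 genes were called, and among the other named genes the calls of Atf4, Slc7a6, Adsl and Cebpb ended. Paired sign-flip tests gave an adjusted p of 0.0938 for the ratios Shmt2 over Shmt1 (0.77), Mthfd2 over Mthfd1 (0.62) and Slc7a5 over Slc3a2 (0.50). With 6 pairs the smallest p of such a test is high, which leaves little room to pass after adjustment over 6 ratios. In Shmt2 over Shmt1, ChR2 well 4 lay below wild-type well 4 (4.001 against 4.338). In Slc7a5 over Slc3a2, ChR2 well 6 lay just below wild-type well 6 (-0.793 against -0.788). The misses of these ratios thus do not rest on that limit alone. As the numbers did not pair the wells, no conclusion is drawn from the paired tests.

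Without wild-type wells 2 and 5, the ratio differences of Shmt2 to Shmt1 (0.64) and Slc7a5 to Slc3a2 (0.30) missed the threshold and Mthfd2 to Mthfd2l turned to 0.24. From counts in place of TPM, Mthfd2 to Mthfd2l was 0.27 and Phgdh to Psat1 passed at -0.53. With single wells left out these ran from -0.36 to 0.37 and from -0.47 to -0.19.

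Signs turned for some genes. Phgdh was -0.0048 without wild-type well 1 (-0.0048 to 0.36 over single wells). Mthfd1 was 0.0795 without wells 2 and 5, 0.012 and 0.061 with DESeq2 and upper-quartile scaling, 0.018 by DESeq2, 0.0078 without a filter, 0.46, 0.52 and 0.46 on TPM, 0.015 with the block, 0.032 on TPM and 0.06045 with DESeq2 factors over 10 libraries, and -0.0603 to 0.0835 over single wells. Dld was 0.0014 and 0.048 with the same scalings, 0.0096 by DESeq2, 0.57, 0.59 and 0.57 on TPM, 0.087 with the block, and -0.146 to 0.09996 over single wells. Slc7a11 was 0.073 by voom. The cause was not tested. Depth limits low genes such as Shmt1, Cth and Slc1a3 in wild-type wells 2 and 5.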

Other observations

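Genes that charge transfer RNAs with amino acids, of which several are ATF4 targets, rose in part. Of 20 cytosolic aminoacyl-tRNA synthetase genes 6 were called higher in ChR2 wells and 0 lower (edgeR; 8 higher and 1 lower at an unadjusted p under 0.05, and 8 higher and 0 lower by DESeq2), and the median over the list was 0.22 (log2). Over 10 libraries 9 were higher and 0 lower. Cars, the cysteinyl-tRNA synthetase gene, had the largest rise at 86.5 ± 7.82 against 58 ± 9.61 CPM (0.57, SE 0.12, adjusted p = 0.00369).

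Other motifs were searched in the same 250 bases before the starts of the 9 genes with a window. The E-box CACGTG was found in Aldh18a1, 59 bases before its start, and in 6.02% of all windows. The antioxidant response core TGACNNNGC, on both strands, was found in Phgdh and Asns and in 10.2% of all windows.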
